A study of Mus musculus with 12 samples.

Results

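Cardiac muscle genes were followed in RNA from the aorta of ApoE-/- mice. The group was a named list of 10 genes: Myl7, Myl4, Sln and Nppa, which in the heart mark the atria and the muscle sleeves of the great veins, and Myh6, Actc1, Tnnt2, Tnni3, Ryr2 and Pln, which the heart uses more widely. All 10 have a row among the 25284 genes of the deposited count table. None of the last 6 is restricted to the ventricle, so that ventricular muscle was read from separate genes (Myl2, Myl3, Myh7 and Hey2).

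The 12 mice were male, lacked apolipoprotein E, a protein that carries lipoprotein particles to their receptors, and ate a high fat, cholesterol enriched diet. From 10 weeks of age, 6 were given the α7nAChR agonist AZ6983 (A1 to A6; 50 µmol per kg each day, 8 weeks in all) through subcutaneous minipumps, and 6 received vehicle, cyclodextrin in saline (controls, C1 to C6). The deletion and the diet were thus shared by both groups, and no wild-type or chow-fed mice were compared. At 18 weeks RNA of the thoracic aorta was sequenced after removal of ribosomal RNA, 1 library per mouse.

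Cardiomyocytes contract through a sarcomere in which myosin heavy chains pull on actin filaments, while troponin and the myosin light chains set when and how strongly they do so. Calcium released from the sarcoplasmic reticulum through the ryanodine receptor starts each beat, and the pump that takes it back is held in check by the small membrane proteins phospholamban and sarcolipin. The wall of the aorta is made of smooth muscle and not of heart muscle, but the vessel leaves the heart at its root, and the large veins beside it carry sleeves of atrial muscle. In a sample of whole tissue, more cells of a type and more RNA per cell cannot be told apart.

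Each library held 23810036 to 35864666 counts on genes. Values are given in CPM, the usual scaling of a count by the size of its library, with library sizes corrected by edgeR's TMM factors. The smooth muscle genes that define the tissue were high in every library, with Myh11 at 5463 to 6923 CPM in controls and 4551 to 7014 CPM in AZ6983 mice. Mouse A4 stood apart by its thymocyte genes, which summed to 815.9 CPM and to at most 30.5 CPM in any other mouse. Mouse A5 had the lowest sum of the 8 smooth muscle genes, 10589 CPM, where the others had 13638 to 18200 CPM. Reads that the count assigned to no feature were 8.02% to 12.7% of each control library and 11.2% to 14.9% of each AZ6983 library. For A1, the column name holds 3 of the 4 digits in the mouse's title, found in no other title.

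The sequences just before the start of 3 of the genes are shown, since Myl7 and Nppa varied widely between mice and Ryr2 did not. They are the 250 bases upstream of the RefSeq start in GRCm38.p6, read 5′ to 3′ on the strand of the gene. Capitals mark matches on either strand to short motifs of factors at work in heart muscle: GATAA for GATA factors, AGGTGT for T-box factors, TNAAGTG for NKX2-5, CATTCC for the MCAT element, and the longer MEF2 and CArG motifs. Myl7 lies at chr11:5898783-5899032 (minus strand), Nppa at chr4:148000472-148000721 (plus strand) and Ryr2 at chr13:12106946-12107195 (minus strand).
Myl7: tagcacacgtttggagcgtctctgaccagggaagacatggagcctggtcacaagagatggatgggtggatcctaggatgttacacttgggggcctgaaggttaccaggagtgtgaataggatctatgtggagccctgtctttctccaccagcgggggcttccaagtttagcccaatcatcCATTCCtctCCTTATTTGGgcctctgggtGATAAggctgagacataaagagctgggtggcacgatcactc
Nppa: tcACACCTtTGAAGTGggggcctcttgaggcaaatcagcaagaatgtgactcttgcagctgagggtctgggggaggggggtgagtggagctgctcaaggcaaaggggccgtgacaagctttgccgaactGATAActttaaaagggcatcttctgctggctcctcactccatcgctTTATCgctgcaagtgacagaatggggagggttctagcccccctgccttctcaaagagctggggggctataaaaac
Ryr2: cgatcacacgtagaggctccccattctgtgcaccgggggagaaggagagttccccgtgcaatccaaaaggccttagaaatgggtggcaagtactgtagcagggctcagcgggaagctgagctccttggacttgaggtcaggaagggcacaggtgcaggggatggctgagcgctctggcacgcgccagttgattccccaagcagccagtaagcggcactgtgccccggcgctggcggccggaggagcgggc
The window of Myl7 held an MCAT match, a CArG match and GATAA, that of Nppa 2 GATA matches and 1 each for T-box and NKX2-5, and that of Ryr2 none of the 6 motifs. The window of Myl4, which also varied widely, held none either, and those of the other 5 genes with an entry held 1 or 2 of the 6 motifs. The letters GATAA and the genes shown were chosen after the sequences were seen: the longer AGATAA, tried first, had no match in Myl7 or Nppa, matches in Tnnt2 and Pln, and a match in 9.99% of all windows. Overlapping matches were each counted. Such matches are frequent by themselves. Of 32851 windows of this length, 22.6% held GATAA, 12.6% CATTCC, 11.8% AGGTGT, 10.1% TNAAGTG, 1.47% a CArG box and 0.508% a MEF2 motif.

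The cardiac genes were present in both groups, and for the 9 genes other than Ryr2 the SD between mice of each group exceeded the difference between the group means in log2 CPM. Over the 12 mice Myh6 ranged from 0.745 to 99.9 CPM and Myl7 from 0.118 to 19.6 CPM, while Ryr2 stayed between 67.7 and 129 CPM. Control mouse C2 was the highest of the 12 for 7 of the 10 genes, and for 9 of the 10 the 3 highest mice were C2, A2 and A6. Of the 9 cardiac genes that could be tested, 0 changed with AZ6983 at 10% FDR, where 0% of all genes tested did.

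Myl7, the regulatory light chain of atrial myosin (GRCm38 chromosome 11, 5896637 to 5898782, minus strand), was covered by 13 to 497 counts in a control and by 3 to 337 in an AZ6983 mouse. In CPM the controls ran from 0.442 through a median of 2.05 to 19.6, and the AZ6983 mice from 0.118 through a median of 1.99 to 12.1. The groups overlapped, and C2, A2 and A6 held 73.3% of the summed CPM. In edgeR's quasi-likelihood test the log2 fold change of Myl7, AZ6983 over control, came to -0.19 ± 1.06 (standard error, as for every fold change) with an adjusted p of 0.962.

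Myl4, the essential light chain of atrial myosin (chromosome 11, 104550663 to 104595753, plus strand), never came near 0. Its counts were 95 to 673 in controls and 78 to 472 in AZ6983 mice. Controls lay at 3.23 to 26.6 CPM (median 5.17) and AZ6983 mice at 3.06 to 17.0 CPM (median 5.81). The groups overlapped, with C2, A2 and A6 highest, and the log2 fold change was -0.06 ± 0.601 (edgeR adjusted p = 0.979).

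Sln encodes sarcolipin, which restrains the calcium pump in the atria and also in some skeletal muscles (chromosome 9, 53850164 to 53854560, plus strand). Controls had 0 to 152 counts, or 0 to 6.01 CPM with a median of 0.397, and AZ6983 mice 1 to 166 counts, or 0.0392 to 6.19 CPM with a median of 1.56. The highest values were in A6, C2 and A2, and A5 followed at 2.90 CPM. The groups overlapped, and the log2 fold change was 0.81 ± 1.20 (edgeR adjusted p = 0.822).

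Nppa, the precursor of the atrial natriuretic peptide (chromosome 4, 148000722 to 148002079, plus strand), had the fewest counts of the list and did not pass edgeR's filter on low counts. Controls C1, C4 and C5 and AZ6983 mice A1 and A4 had 0 counts, and C3, C6 and A3 had 2, 1 and 1. Nearly all Nppa was in A2 with 105 counts, A6 with 82, C2 with 36 and A5 with 18. Fitted without that filter, Nppa had a log2 fold change of 2.34 ± 1.38 (edgeR adjusted p = 0.568), which with 5 mice at 0 counts depends on the prior count, and an exact permutation test on log2 CPM, two-sided, gave p = 0.264.

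Myh6, the alpha heavy chain of cardiac myosin (chromosome 14, 54941921 to 54966927, minus strand), had the highest CPM of the contractile genes in C2, A2 and A6, a value that is not corrected for the length of the gene. Controls lay at 1.46 to 99.9 CPM (median 11.6, 43 to 2527 counts) and AZ6983 mice at 0.745 to 65.7 CPM (median 11.8, 19 to 1827 counts). The group means were nearly the same, 24.3 ± 37.6 CPM and 24.3 ± 28.8 CPM (SD, n = 6 each), and both SDs exceeded the means. Its log2 fold change was 0.00 ± 1.10 (edgeR adjusted p = 0.9999). Myh6 is near-identical to Myh7 in parts of its coding sequence, so that some reads could be missing or misplaced.

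Tnni3 and Tnnt2 encode the inhibitory and the tropomyosin-binding subunit of cardiac troponin. Tnni3 (chromosome 7, 4518305 to 4524229, minus strand) was at 0.340 to 12.5 CPM in controls (median 1.27) and 0.446 to 7.70 CPM in AZ6983 mice (median 1.76). Tnnt2 (chromosome 1, 135836354 to 135852260, plus strand) was at 4.92 to 25.2 CPM in controls (median 8.64) and 3.64 to 17.3 CPM in AZ6983 mice (median 6.06). Both were highest in C2, A2 and A6 and overlapped widely between the groups. The log2 fold change was 0.15 ± 0.941 for Tnni3 (edgeR adjusted p = 0.966) and -0.22 ± 0.493 for Tnnt2 (edgeR adjusted p = 0.892). Tnni3 shares exons on the same strand with Dnaaf3, which had 6 to 27 counts per mouse, so that a few reads could belong to either.

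Actc1, cardiac alpha actin (chromosome 2, 114047282 to 114053548, minus strand), was at 2.55 to 34.8 CPM in controls (median 5.50) and 4.05 to 22.8 CPM in AZ6983 mice (median 9.70). The groups overlapped, with C2, A6 and A2 highest, and the log2 fold change was 0.31 ± 0.640 (edgeR adjusted p = 0.881). Actins are near-identical in their coding sequence, and smooth muscle actin Acta2 had a median of 5803 CPM here, so that the low values of Actc1 are uncertain.

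Ryr2, the calcium release channel of heart muscle, which other cells including smooth muscle also make (chromosome 13, 11553102 to 12106945, minus strand), hardly varied between mice. Controls lay at 98.2 to 113 CPM (median 104) and AZ6983 mice at 67.7 to 129 CPM (median 86.5), and the SD over all mice was 0.25 in log2 CPM, close to the median of 0.22 over all genes tested. The highest mouse was A2, whereas C2 and A6 were at 101 and 90.5 CPM. In 5 of 6 AZ6983 mice Ryr2 was below the lowest control, and A2 was above the highest. The log2 fold change of -0.19 ± 0.123 did not pass the test (edgeR adjusted p = 0.576, exact permutation test on log2 CPM, two-sided, p = 0.123).

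Pln encodes phospholamban, which restrains the calcium pump of heart and smooth muscle (chromosome 10, 53337667 to 53345987, plus strand). It was at 5.31 to 16.8 CPM in controls (median 8.67) and 4.49 to 11.98 CPM in AZ6983 mice (median 7.25), highest in C2, A2 and A6 but within a 3.73-fold range. The groups overlapped, and the log2 fold change was -0.18 ± 0.292 (edgeR adjusted p = 0.847). Exons of Cep85l overlap Pln on the other strand and had 384 to 603 counts per mouse. Since the strand setting of the count is not given, part of the Pln counts may belong to Cep85l.

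**Figure D1:**
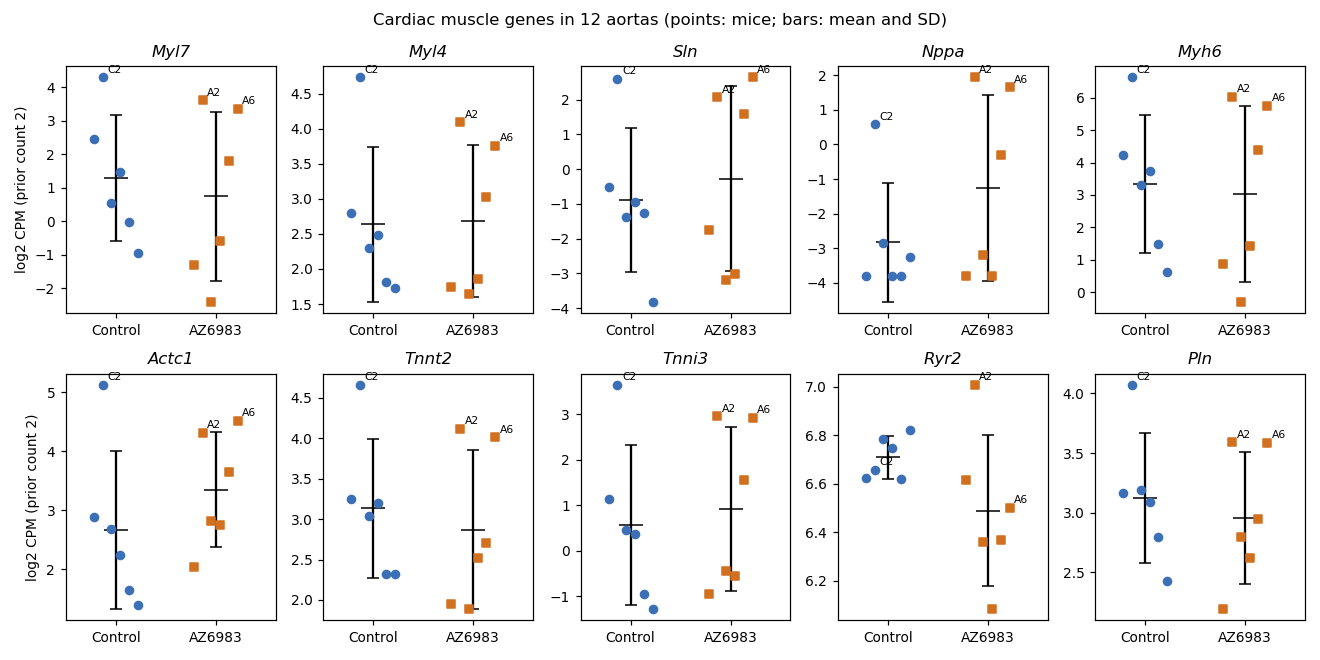
Level of each of the 10 cardiac genes (log2 CPM with a prior count of 2, 1 panel per gene) in 6 control and 6 AZ6983 mice. Points are mice, and the black bars give the mean and SD of a group. The groups overlap in every panel, and C2, A2 and A6 sit at the top in all panels but that of Ryr2.

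Of the 9 cardiac genes that passed the filter, 0 passed 10% FDR in edgeR and 0 had an unadjusted p under 0.05. Among all 15857 genes tested, 0% passed 10% FDR, and 10.2% had an unadjusted p under 0.05, 7.38% being higher and 2.81% lower in AZ6983 mice. DESeq2 on every gene called 0 of the 10 cardiac genes, beside 92 of the 17592 genes to which it gave an adjusted p (0.523%). For 0 of the 10 were the groups free of overlap, against 0.41% of all genes tested. The median log2 fold change of the 9 genes was -0.06, 4 being higher and 5 lower in AZ6983 mice, and that of all genes tested was 0.01. For Myl7, Sln and Myh6 the standard error was larger than 1 log2 unit. Single mice moved the fold changes. Without C2 the log2 fold change of Myl7 was 1.02, of Myl4 0.73, of Sln 2.66, of Myh6 1.38, of Tnni3 1.57 and of Actc1 1.32, and without A2 that of Myl7 was -0.81 and of Myh6 -0.61.

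The spread between mice set most of these genes, but not only these, apart from most of the table. The SD over the 12 mice in log2 CPM was 2.33 for Myh6, 2.29 for Sln and 2.15 for Myl7, more than for 99.6% to 99.7% of the genes tested. It was 1.71 for Tnni3, 1.17 for Actc1, 1.05 for Myl4 and 0.89 for Tnnt2, and 0.53 for Pln. Pln thus varied more than 86.9% of the genes tested, and Ryr2 more than 55.9%. Skeletal muscle genes could vary as widely, with an SD of 2.43 for Tnnt3 and 3.13 for Myh2, though 0.71 for Myl1.

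Apart from Ryr2, and less clearly for Nppa, the genes rose and fell together from mouse to mouse. Over the 28 pairs among the 8 genes other than Ryr2 and Pln, Pearson's r in log2 CPM over the 12 mice ran from 0.754 to 0.988 and Spearman's rho from 0.558 to 0.993. All 28 had an adjusted p under 0.05 for r (permutation test of r, two-sided, adjusted over 45 pairs). The r of Nppa rests on the few mice that had it. In the permutation test of rho its adjusted p was 0.0547 with Myl4 and Myh6, 0.0658 with Myl7, 0.0666 with Sln and 0.0795 with Tnnt2. It was 0.0195 with Actc1 and 0.0144 with Tnni3. Within controls the adjusted p for r of Nppa with these 7 genes was 0.129 to 0.209. For Myl7 and Myh6 r was 0.988 (permutation p = 1e-05, the smallest that the draws allow, adjusted p = 3.75e-05) and rho 0.986. Leaving out the mice farthest from the median, A3 and C2, gave r = 0.981, and each group alone gave 0.977 (controls) and 0.999 (AZ6983 mice) (n = 6 each, exact permutation p = 0.00139 for both). Pln followed the 8 genes with r of 0.744 to 0.943. Ryr2 did not, with r of -0.01 to 0.373 against the 9 others and no pair past the threshold. Against Myl7 the r of Ryr2 was 0.346 (permutation p = 0.272, adjusted p = 0.322) and rho 0.350 (permutation p = 0.266), and r was 0.243 without A3 and C2. It was -0.53 within controls and 0.533 within AZ6983 mice (n = 6 each, exact permutation p = 0.274 and 0.285). These correlations share libraries and depth across genes.

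**Figure D2:**
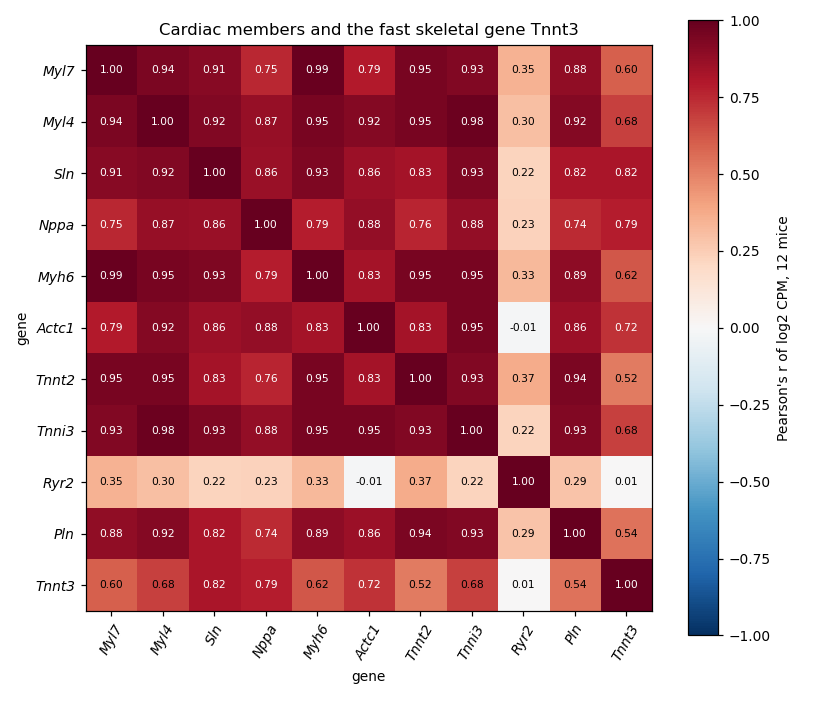
Pearson's r of log2 CPM over 12 mice between the 10 cardiac genes and the fast skeletal gene Tnnt3, with red for positive and blue for negative values. The block of 8 genes and Pln has r of 0.744 or more, and the row of Ryr2 has r of 0.373 or less with the other cardiac genes.

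The genes differed in how much of their level was there without Myl7. A straight line of CPM on the CPM of Myl7 was fitted over the 12 mice as a description, chosen after the values were seen. For Myh6 the line met 0 CPM of Myl7 at -0.33 ± 1.30 CPM (standard error) and rose by 5.17 CPM for each CPM of Myl7. Tnni3 met it at 0.134 ± 0.237 CPM and Sln at 0.110 ± 0.415 CPM, also within 1 standard error of 0. Myl4 met it at 2.63 ± 0.357 CPM, Actc1 at 3.58 ± 1.09 CPM, Tnnt2 at 4.48 ± 0.448 CPM and Pln at 6.14 ± 0.395 CPM, which is 32%, 32.7%, 46.9% and 70.6% of their mean level. For Ryr2 it was 94.4 ± 6.03 CPM, or 96.2%. With each mouse left out in turn these intercepts stayed at 2.47 to 2.83 CPM for Myl4, 4.18 to 4.66 CPM for Tnnt2 and 5.84 to 6.42 CPM for Pln. The mouse with the least Myl7, A3 at 3 counts, showed the same split directly, apart from Tnni3. A3 had 78 counts of Myl4, 93 of Tnnt2, 175 of Pln and 178 of Actc1, but 19 of Myh6, 1 of Sln and 1 of Nppa. With 17 counts in A3, Tnni3 did not fall in step with Myh6. Its share of the counts of both genes was 47.2% in A3, on 36 counts. In C2, A2 and A6 that share was 11.1%, 10.5% and 12.2%. A line through 0 thus did not describe Tnni3 in A3.

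**Figure D3:**
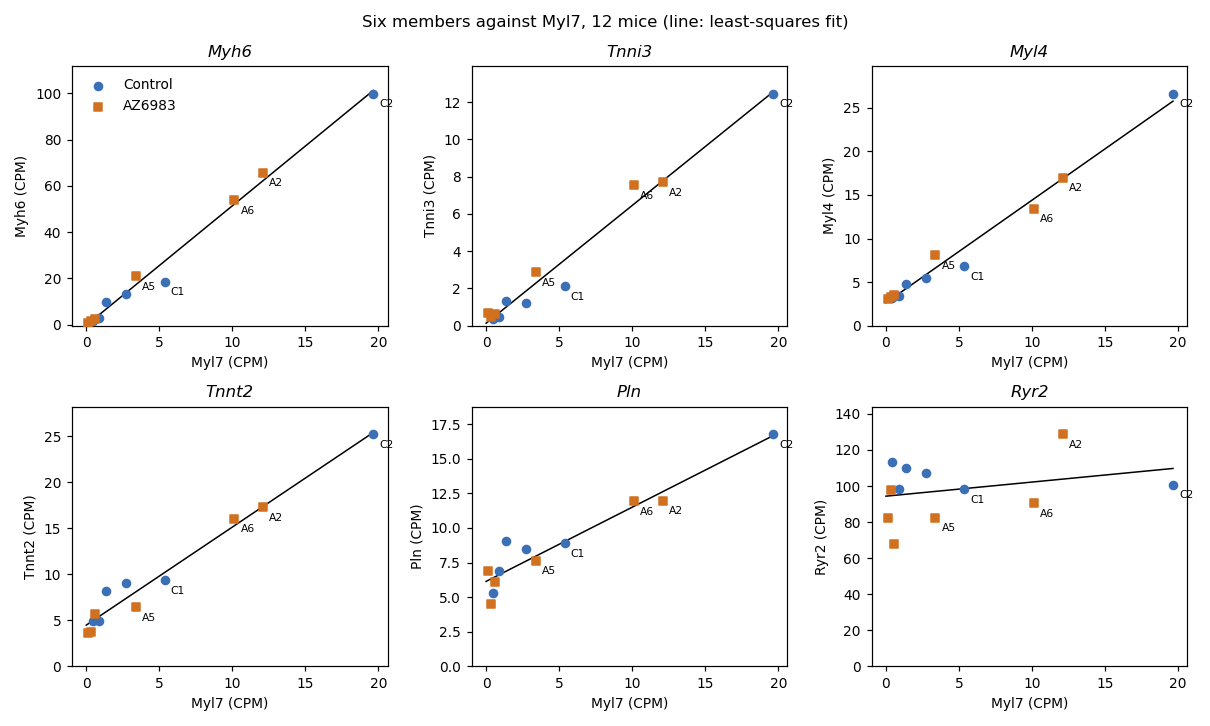
CPM of Myh6, Tnni3, Myl4, Tnnt2, Pln and Ryr2 (vertical axes) against CPM of Myl7 (horizontal axes), 1 point per mouse, with the least-squares line. The lines of Myh6 and Tnni3 start near 0, those of Myl4, Tnnt2 and Pln at 2.63, 4.48 and 6.14 CPM, and Ryr2 stays near 94.4 CPM over the whole range.

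Per kilobase of annotated exon, the highest level of any mouse was 33.3 CPM per kb for Myl7, 21.5 for Actc1 and 14.9 for Myh6. It was 6.08 for Pln, 6.04 for Tnni3, 5.74 for Myl4 and 4.70 for Sln. Ryr2 had 4.47, Nppa 4.37 and Tnnt2 3.25. The length used was 7752 bp in 39 exon records for Tnnt2 and 4637 bp in 21 for Myl4. For Myl7 it was 590 bp in 7 records. Which of these exons the libraries used was not tested, so the order of genes on this scale can depend on the annotation. Levels of different genes are therefore not directly comparable. The median over the mice gave another order, led by Actc1 at 4.22 CPM per kb, Myl7 at 3.47, Ryr2 at 3.41 and Pln at 2.92. Smooth muscle Myh11 had a median of 797.5 CPM per kb on the same scale.

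Atrial and wider cardiac genes were then separated in each mouse. The score of a set is the mean over its genes of log2 CPM less the gene's mean over the 12 mice, and the atrial score covers Myl7, Myl4, Sln and Nppa. It was 2.79 in C2, 2.66 in A2, 2.59 in A6, 1.26 in A5 and -0.04 in C1, and between -2.04 and -0.47 in the other 7 mice. Atrial minus the other 6 genes came to -0.20 ± 0.58 in controls and 0.20 ± 1.07 in AZ6983 mice (SD, n = 6 each). It was 1.30 in A6, 1.25 in A2, 0.92 in both C2 and A5, and below 0 in the other 8. The 6 include Ryr2 and Pln, which varied least. Against Myh6, Actc1, Tnnt2 and Tnni3 alone, the atrial score was 0.79 higher in A2, 0.76 in A6, 0.66 in A5, 0.26 in C5 and 0.25 in C2, and lower in the other 7 mice, lowest in A4 at -0.71. The mice above 0 were also those with the highest skeletal muscle sums, given below. SDs in log2 CPM were 2.15, 1.05, 2.29 and 2.30 for Myl7, Myl4, Sln and Nppa. They were 2.33, 1.17, 0.89 and 1.71 for Myh6, Actc1, Tnnt2 and Tnni3. With such unlike spreads the difference can also move with the level of all the genes. The part of each was not tested.

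Within the atrial set, Nppa did not keep a fixed ratio to Myl7. Its share of the counts of both genes was 23.8% in A2 (exact 95% binomial interval 19.9% to 28%, counting error only), 23.2% in A6 (18.9% to 27.9%) and 17.8% in A5 (10.9% to 26.7%). In C2, which had more Myl7 than any other mouse, it was 6.75% (4.78% to 9.23%). Mouse C1 had 154 counts of Myl7 and 0 of Nppa, which allows a share of up to 1.95% at 3 counts of the total, with 2.37% as the upper end of the exact interval. C4 had 73 and 0, which allows up to 4.11% at 3 counts, with an exact upper end of 4.93%. Over all mice the share was 3.11% ± 3.50 in controls and 15.0% ± 11.8 in AZ6983 mice (SD, n = 6 each), a comparison chosen after the values were seen (exact permutation test, two-sided, p = 0.0628). It depends on the scale, since 5 mice have at most 26 counts of both genes: as a difference of log2 CPM with a prior count of 2, Nppa less Myl7 was -4.12 ± 1.42 in controls and -1.99 ± 0.83 in AZ6983 mice (SD, n = 6 each, exact permutation p = 0.00866). The second value rests in part on mice with 0 Nppa, for which the prior count sets the difference.

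**Figure D4:**
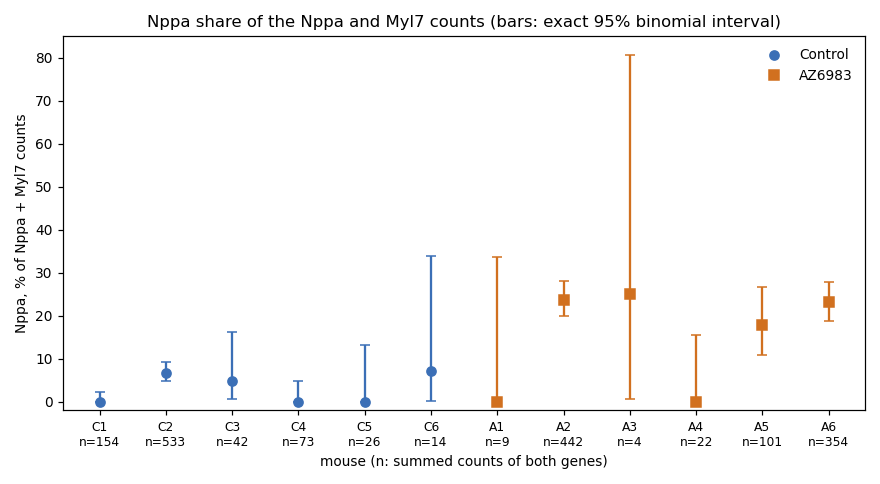
Nppa as a percent of the summed Nppa and Myl7 counts in each mouse (vertical axis), with exact 95% binomial intervals, and the summed counts under each mouse. A2, A5 and A6 lie at 17.8% to 23.8%, C2 at 6.75%, and C1 and C4 at 0 of 154 and 0 of 73 counts.

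Sln also changed its ratio to Myl7. Its share of the counts of both was 46.1% in A5 (exact 95% binomial interval 38.1% to 54.3%) and 37.9% in A6 (33.3% to 42.6%), but 25.3% in A2 and 23.4% in C2. In C1 it was 10.5% (6.32% to 16%), and mouse A1 had 40% on only 15 counts. Myl7 and Myh6 stayed closer to a fixed ratio: Myl7 made up 12.3% to 25.0% of the counts of both in all 12 mice, and 15.6% to 16.4% in C2, A2 and A6. The ratio still differed beyond counting error, with 22.4% in C1 (exact 95% binomial interval 19.3% to 25.7%) and 16.4% in C2 (15.1% to 17.8%).

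Ventricle-enriched genes told the mice apart further. Myl2, the regulatory light chain of ventricular and slow skeletal myosin, was at 10.4 CPM in A6, 7.75 in C2, 4.03 in A2, 1.53 in C5 and 1.10 in A5, and at 0.552 CPM or less in the others. Myh7, the beta heavy chain of the same fibres and of the ventricle, was at 33.4 CPM in C2, 27.6 in A6, 17.4 in A2, 6.17 in A5 and 4.71 in C5. Mice C1 and C4 had little of either: with 533 and 358 counts of Myh6 they had 6 each of Myh7, and with 154 and 73 of Myl7 they had 2 and 0 of Myl2. Of both myosin heavy chains, Myh7 thus made up 1.11% in C1 and 1.65% in C4 but 25.1% in C2, 20.9% in A2 and 33.9% in A6. The highest shares were in mice with little Myh6, 63.6% in C5, 50% in A1 and 40.6% in A3, on 214, 94 and 32 counts of both genes. Myl3, the ventricular and slow fibre essential light chain, was at 0.260 to 2.17 CPM. Hey2, a repressor of transcription that Notch signalling induces and arteries also make, was at 29.05 to 54.4 CPM. It did not follow Myl7 (r = -0.20 over 12 mice in CPM).

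Skeletal muscle RNA varied too, and moved in part with the cardiac genes. The 21 skeletal genes summed to 805.0 CPM in C2, 813.9 in A5, 794.1 in A6, 556.5 in A2 and 321.9 in C5, to 135.3 in A1 and to 24.8 to 99.2 CPM in the other 6. Fast skeletal troponin T, Tnnt3, which heart muscle does not use, was at 0.521 to 63.4 CPM. Its r with the cardiac genes over 12 mice was highest for Sln at 0.817 (permutation p = 0.00198, adjusted over 10 genes p = 0.0176, rho = 0.734, permutation p = 0.00824), and without A6 and C2 r was 0.719. Taken by group it was 0.704 in controls and 0.979 in AZ6983 mice (n = 6 each, exact permutation p = 0.118 and 0.00694). Sln was not alone in this: r was 0.786 for Nppa, 0.720 for Actc1, 0.685 for Myl4 and 0.682 for Tnni3. Their adjusted permutation p was 0.0176, 0.032, 0.0342 and 0.0342. With the 2 farthest mice of each gene left out, r was 0.733, 0.554, 0.529 and 0.525. For Myl7 r was 0.597 (permutation p = 0.0434, adjusted p = 0.062, rho = 0.615, permutation p = 0.0367), and it fell to 0.460 without A3 and C2. Mice C1 and C4 had 18.6 and 13.3 CPM of Myh6 with 2.37 and 0.521 CPM of Tnnt3, whereas C5 had 2.70 CPM of Myh6 with 20.4 CPM of Tnnt3. Tnni1, the troponin I of slow skeletal fibres, was at 3.12 CPM in C2, 2.68 in A6 and 1.98 in A2, and at most 0.555 CPM elsewhere, so that in those 3 mice ventricular and slow skeletal muscle cannot be told apart from Myl2 and Myh7. The part of skeletal muscle in the levels of Sln and Actc1, which it also makes, was not tested.

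**Figure D5:**
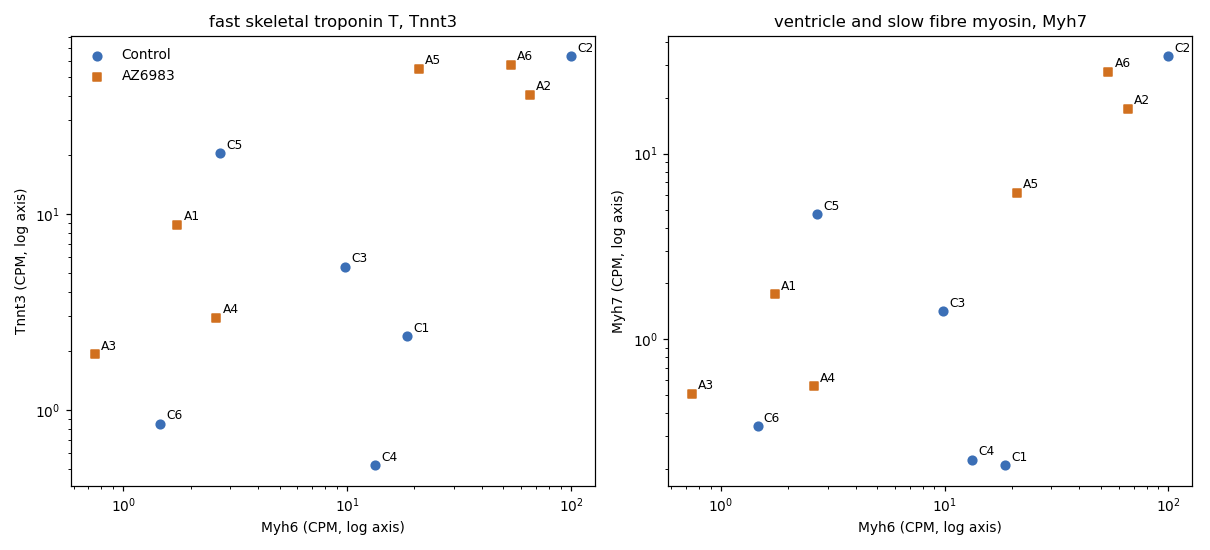
Tnnt3 (left) and Myh7 (right) against Myh6 in each of 12 mice, in CPM on log axes. C1 and C4 lie low in both panels at 18.6 and 13.3 CPM of Myh6, C5 lies high at 2.70 CPM of Myh6, and C2, A2 and A6 are at the upper right.

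Other genes of atria, venous sleeves and pacemaker tissue gave a mixed picture. Kcnj5, a subunit of the acetylcholine-gated potassium channel of the atria, had at most 1.54 CPM but followed Myl7 (r = 0.985 over 12 mice in CPM), with the highest values in C2, A2 and A6. Its partner Kcnj3 did not to the same degree, at 0.104 to 3.03 CPM (r = 0.483), with C3, C2 and C6 at 3.03, 2.77 and 2.24 CPM. Hcn4, the pacemaker channel, was at 0.105 to 1.07 CPM, Kcna5, a potassium channel of atria and smooth muscle, at 5.95 to 18.5 CPM and Stard10 at 9.43 to 13.8 CPM. Shox2, a factor of the sinus node, was at 2.09 to 8.45 CPM in controls and 1.62 to 3.02 CPM in AZ6983 mice, with C3 highest. It was the only gene of these lists for the heart with an unadjusted p under 0.05, where 2.81% of all genes tested were lower in AZ6983 mice at that level, and its log2 fold change of -0.79 ± 0.340 did not pass the test (edgeR adjusted p = 0.475).

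Further cardiac genes were described from a list of 25, of which 24 were counted and 20 passed the filter. Of these 20, 0 passed 10% FDR, 0 had an unadjusted p under 0.05, 14 were higher and 6 lower in AZ6983 mice, and the median log2 fold change was 0.15. For 12 genes shared by all striated muscle the median was 0.53. For the 16 tested skeletal genes it was 0.88, 16 of 16 being higher in AZ6983 mice and 0 passing 10% FDR in edgeR. Of all 15857 genes tested, 8314 were higher and 7543 lower, with a median of 0.01, and 10.2% had an unadjusted p under 0.05. The 16 genes come from the same libraries and are not independent of each other. Their log2 fold changes ran from 0.09 ± 0.386 for Myl1 to 1.28 ± 1.29 for Myh2. Tcap, a protein of the sarcomere's Z disc, was the only one of these 12 and 16 genes with an unadjusted p under 0.05 and was lower, with a log2 fold change of -0.74 ± 0.184 (edgeR adjusted p = 0.447). The paper, which used DESeq2, lists Tcap among its genes lower at 10% FDR, so that the call differs between the analyses.

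The genes whose pattern over the 12 mice was most like that of the atrial score were Mybpc3, cardiac myosin binding protein C (r = 0.970), Mylk3, the cardiac myosin light chain kinase (r = 0.964), the unnamed gene Gm28719 (r = 0.939), Alpk3 (r = 0.929) and Tnnc1, the troponin C of heart and slow muscle (r = 0.929). Mybpc3 led again for Myh6, Actc1, Tnnt2 and Tnni3 (r = 0.986), before Mylk3 (r = 0.928), Tnnc1 (r = 0.906), Murc (r = 0.881) and Alpk3 (r = 0.878). Mybpc3 was at 6.44 CPM in C2, 3.96 in A2, 3.36 in A6, 1.72 in A5 and 0.976 in C1. Pln was most like Mybpc3 (r = 0.900), Homer2 (r = 0.885), Tnnc1 (r = 0.883), Mgl2 (r = 0.858) and Gm42670 (r = 0.846). None of these 9 genes was among the genes most like Ryr2, which were Cacul1 (r = 0.923), Pdgfc (r = 0.901), Socs5 (r = 0.875), Smad9 (r = 0.873) and Pcdhgc5 (r = 0.871). Values of r are over 12 mice in log2 CPM, and were the highest of all tested genes outside the 10, so they are a description.

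The share of reads assigned to no feature was 14.9% in A2, 13.9% in A6 and 12.7% in C2, the 3 highest of the 12. In the other mice it followed the cardiac genes only in part. A5, the 4th highest for Myl4, Sln, Nppa, Myh6, Actc1 and Tnni3, had 12.5%. C1, the 4th highest for Myl7 and Tnnt2, had the lowest share at 8.02%. A3 and A4, with 0.118 and 0.585 CPM of Myl7, had 12.1% and 12.3%. The libraries carry numbers whose meaning is not given, 8 for A2, 9 for A6 and 12 for C2. A4 and A1, with little Myl7, have 10 and 11, A5 has 2, A3 has 1 and the other 5 controls have 3 to 7. The part of either in the levels of the cardiac genes was not tested. Mouse A4, which stood apart by its thymocyte genes, had 0.585 CPM of Myl7.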

How the data were processed

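Libraries were stranded and depleted of ribosomal RNA, with both ends read by 75 bases, and the authors deposited whole-number counts per gene symbol in 1 table. The submitters' notes name STAR 2.5.2b, HTSeq 0.6.1p1, CASAVA 1.8.2 and mm10. The annotation and the strand setting are not given in the sources used here. Titles gave the groups. The 3 rows that name no gene (no feature, ambiguous, not unique: 8.02% to 14.9%, 0.606% to 0.698% and 18.1% to 23.2% of the reads) were left out. Reads that were not unique are missing from near-identical genes. Shares carry exact Clopper-Pearson intervals.

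The groups were compared in R 4.3.3 by edgeR 4.0.16 (TMM, filterByExpr, quasi-likelihood test, no covariate) over 15857 of 25284 genes, with Benjamini-Hochberg adjustment at 10% FDR. DESeq2 1.42.0 and limma-voom (limma 3.58.1) were alternatives. The standard error of a fold change was derived from its F statistic. On simulated counts with 200 genes changed 2-fold, edgeR recovered 145 with 13 false calls among 16030 genes tested. Each simulated gene was given the spread typical of genes at its level. The rate therefore does not carry over to the cardiac genes that varied more widely between mice. Correlations used 100000 permutations. Gene positions and exon lengths are from GENCODE M21, and the promoters from RefSeq GRCm38.p6, which had 9 of the 10 cardiac genes. The 3 printed windows end at the GENCODE start.

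The straight lines, count ratios, Nppa share and Tnnt3 correlations were chosen after the values were seen. The cardiac genes and lists were chosen with earlier results of these data known. Named were the 10 genes, the ventricular and the other atrial genes, list genes past 10% FDR or without overlap, and the 5 genes most alike. Tcap, Tnnt3, Tnni1 and Dnaaf3 were chosen after their values were seen, as were Cep85l, Acta2 and Myh11. Irx4, Bmp10 and Nkx2-5 were not analysed here. A listed gene is not reported here. Mice are separate animals with no pairing in the labels.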

Additional observations from a re-analysis of the deposited data

Results flagged for a closer look

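Among 22 groups of 6 mice (a cardiac gene, or the atrial score less the other, under AZ6983 or vehicle), Dixon's criterion marked a mouse far from the other 5 in 3, where chance, about 1 in 20, gives 1.1. All 3 are control mouse C2. In log2 CPM, Myl4 was at 4.74 in C2 and at 1.72 to 2.79 in the other controls, and Nppa was at 0.58 in C2 and at -3.81 to -2.84 in the others. The atrial score less that of the other 6 cardiac genes was 0.92 in C2 and -0.63 to -0.15 in the others. The 3 values come from the same library and share genes, so they are not independent of each other.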

How the results depend on the processing

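No cardiac gene passed 10% FDR in any fit, and the adjusted p over the cardiac genes and fits lay between 0.323 and 0.9999. The count over all genes was 0 in edgeR, 92 in DESeq2 on every gene, 84 in DESeq2 on the filtered genes, 2 with library totals only and 0 to 27 with each mouse left out, 27 without A5 and 1 without A1 or C6. The direction of single genes was not stable. Myl4 had a log2 fold change of 0.051 in limma-voom, and Myh6 of -0.00042 in DESeq2 on every gene, -0.31 in limma-voom, -0.021 with library totals only and -0.0051 without the filter. With each mouse left out in turn the log2 fold change ran from -0.81 to 1.02 for Myl7, -0.44 to 0.73 for Myl4, -0.61 to 1.38 for Myh6, -0.54 to 0.25 for Tnnt2, -0.31 to 1.57 for Tnni3 and -0.33 to 0.061 for Pln, each lowest without A2 and highest without C2. That of Sln stayed at 0.19 to 2.66, of Actc1 at 0.03 to 1.32 and of Ryr2 at -0.33 to -0.12. The Nppa share differed by 9.84 to 14.8 percentage points with a mouse left out (exact permutation p = 0.0303 without A1 or A4, up to 0.126), and 3 of the 6 controls and 2 of the 6 AZ6983 mice had 0 Nppa counts. Of 45 correlated pairs, 36 passed over 12 mice. With the 2 farthest mice left out 33 passed, within controls 28, within AZ6983 mice 29 and with library totals only 36. The atrial score less the other differed by 0.19 to 0.64 between groups with a mouse left out. The cause of these moves was not tested. No paired analysis was possible because the labels give no numbers that groups share. Depth limits Nppa, Sln and, in A1 and A3, Myl7, with under 10 counts.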
